A study of Mus musculus with 12 samples.

Results

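The transcripts described here are 10 genes that myeloid cells are known for, measured in preparations of resting B (RB) cells. They were chosen by name. Every non-control spot whose gene name in the scanner files was Lyz2, S100a8, S100a9, Cd14, Csf1r, Itgam, Emr1, Fcgr3, Mpo or Tyrobp was taken, which gave 15 probes for the 10 genes, of 50090 gene names on the array. RB cells were isolated from the spleens of BALB/c mice, which the labels give as female and 6 weeks old, by negative selection, in which an antibody cocktail for B cell enrichment together with anti-CD43 marks the other cells for magnetic removal, and were cultured for 4 h. The study checked their purity by flow cytometry for B cell markers and for CD43, CD4 and CD8. There were 6 groups of 2 arrays each. One was left unstimulated, and the others received Pam2csk4 (a synthetic lipopeptide that TLR2 recognises), anti-CD86, anti-CD86 and Pam2csk4, anti-CD40, or anti-CD40 and Pam2csk4. In the methods of the study, cells given anti-CD86 were first coated with biotinylated antibody on ice and cross-linked with streptavidin, and the handling of cells given anti-CD40 is not given there. The study calls the arrays of a group biological replicates but does not say whether they were separate mice or cultures, so the p-values measure only the spread between these arrays. The study asked what TLR2 and CD86 signals do to RB cells, and the comparisons here give the myeloid RNA measured in those preparations.

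Myeloid cells comprise neutrophils, monocytes, macrophages and related cells. S100a8 and S100a9 encode the subunits of calprotectin, a very abundant cytosolic protein of neutrophils. Mpo encodes myeloperoxidase, made mainly by neutrophil and monocyte precursors, and Lyz2 encodes lysozyme M. Itgam encodes the integrin CD11b, Csf1r the receptor of the macrophage growth factors CSF1 and IL-34, and Emr1 the macrophage antigen F4/80. Cd14 encodes a co-receptor that passes lipopolysaccharide and lipopeptides to Toll-like receptors, Fcgr3 the low-affinity IgG receptor CD16, and Tyrobp the adaptor DAP12, which signals for many myeloid and NK cell receptors through a tyrosine-based activation motif. Most leukocytes other than resting B cells bear CD43 and are retained by a CD43 column or magnet. Itgam, Fcgr3 and Tyrobp are also transcribed in NK cells. In a bulk sample, fewer cells of a type and less RNA per cell cannot be told apart.

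The sequences of 4 probes follow, as the scanner files give them, to show what the spots detect. The letters are the 60 bases of each probe, 5′ to 3′, in the sense of the transcript. The S100a8, Lyz2 and Tyrobp probes stand for calprotectin, lysozyme and the adaptor, and the second Fcgr3 probe is shown because it differed from the brightest one. In the Tyrobp probe the capitals mark the codons of the first tyrosine, of the residues after it and of the leucine of the activation motif. The files give no position for any probe, and the reference at hand was of another assembly than the mm9 build in the file headers, so no coordinates are given.
S100a8, brightest probe: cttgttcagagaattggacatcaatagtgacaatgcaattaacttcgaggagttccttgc
Lyz2, the only probe of that name: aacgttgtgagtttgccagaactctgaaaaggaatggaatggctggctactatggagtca
Tyrobp, the only probe: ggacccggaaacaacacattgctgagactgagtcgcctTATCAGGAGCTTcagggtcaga
Fcgr3, second probe: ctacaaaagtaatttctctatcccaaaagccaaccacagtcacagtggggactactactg

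The values are log2 processed intensities minus the 75th percentile of the array, so that 0 is the signal that 75 percent of the spots did not exceed. The arrays lay on 2 slides. The unstimulated group and the anti-CD40 and Pam2csk4 group lay wholly on slide 1, which carried 8 arrays. Each other group had replicate 1 on slide 1 and replicate 2 on slide 2. Over bright probes, arrays of one group differed by a median of 0.052 and 0.063 on the log2 scale for the groups on 1 slide and 0.18 to 0.30 for those on both. Anti-CD40 replicate 2 stood apart, with 60.6% of its spots well above background against 46.6% to 55.9% on the other arrays. The 14 B cell genes listed as markers were well above background on all 12 arrays.

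All 10 genes were detected in every RB preparation: the brightest probe of each was well above background on all 12 arrays, as were 13 of the 15 probes. The exceptions were the dimmest Csf1r probe, above background on 1 array (anti-CD40 replicate 2), and a second Emr1 probe, above background on 2 arrays (anti-CD86 and Pam2csk4 replicate 1 and unstimulated replicate 1). The S100a9 spot was saturated on all 12 arrays, with log2 signals of 7.39 to 8.09, so that no order or fold can be read from it, and the counts below are over the other 9 genes. The probe that carries the Lyz2 name had a modest signal of 0.22 to 1.12. A probe named with the older symbol Lyzs, which the files assign to the same RefSeq transcript as Lyz2, was saturated on 11 of 12 arrays. The signals do not translate into a number of cells.

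**Figure D1:**
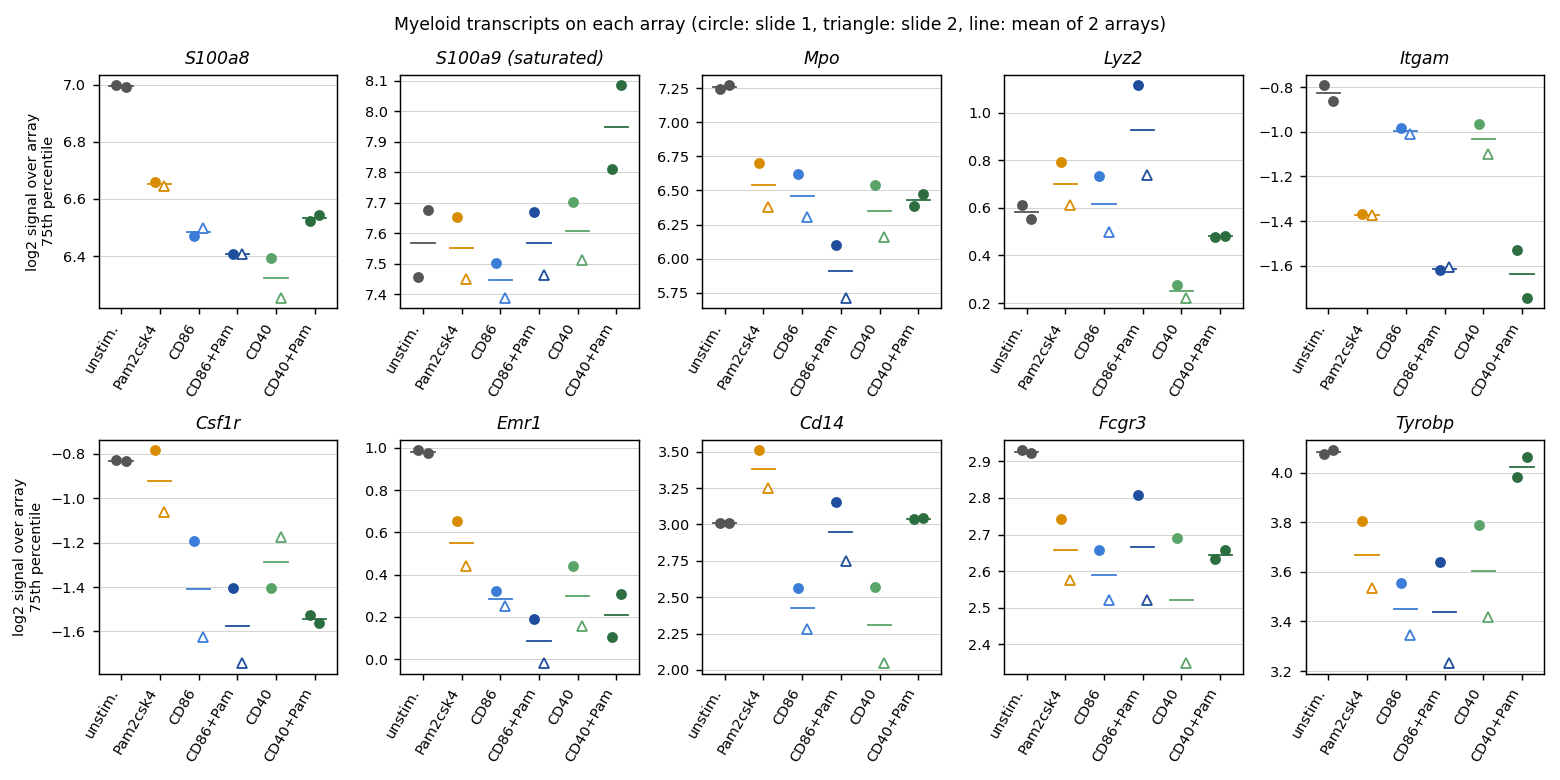
Log2 signal over the 75th percentile of the array (vertical axis, with its own range in each panel) for the brightest probe of the 10 genes in the 6 groups. Circles are arrays on slide 1, triangles arrays on slide 2, and lines the mean of the 2 arrays of a group. For S100a8, Mpo, Itgam, Emr1, Fcgr3 and Tyrobp both unstimulated arrays lie above all 10 other arrays, an order that 16.6% of all probes tested showed, and the S100a9 spot is saturated throughout.

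Among the granule and secreted proteins, S100a8 and Mpo were highest in unstimulated cells. The S100a8 signal was 7.0 and 6.99 on the unstimulated arrays, 6.66 and 6.65 with Pam2csk4, 6.47 and 6.50 with anti-CD86, 6.41 and 6.41 with anti-CD86 and Pam2csk4, 6.39 and 6.25 with anti-CD40, and 6.52 and 6.54 with anti-CD40 and Pam2csk4. The unstimulated arrays did not overlap with any stimulated group. S100a8 fell by 0.51 with anti-CD86 (SE 0.10, limma adjusted p = 0.0452), by 0.59 with anti-CD86 and Pam2csk4 (adjusted p = 0.0160), by 0.67 with anti-CD40 (adjusted p = 0.00606) and by 0.46 with anti-CD40 and Pam2csk4 (adjusted p = 0.0149). With Pam2csk4 alone the log2 fold change was -0.34 (adjusted p = 0.191).

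The Mpo signal was 7.24 and 7.27 on the unstimulated arrays, 6.70 and 6.38 with Pam2csk4, 6.62 and 6.30 with anti-CD86, 6.10 and 5.71 with anti-CD86 and Pam2csk4, 6.54 and 6.16 with anti-CD40, and 6.39 and 6.47 with anti-CD40 and Pam2csk4. It was lowest with anti-CD86 and Pam2csk4 on both slides. There it was 2.55-fold lower than in unstimulated cells (log2 fold change -1.35, SE 0.20, adjusted p = 0.0120), the largest difference of any of the 9 genes from unstimulated cells. Mpo also fell with anti-CD40 (-0.91, adjusted p = 0.0218) and with anti-CD40 and Pam2csk4 (-0.83, adjusted p = 0.0241). Its log2 fold changes with Pam2csk4 (-0.72, adjusted p = 0.183) and with anti-CD86 (-0.80, adjusted p = 0.0741) did not pass, and in the fit with slide as a block both did (-0.54, adjusted p = 0.00646, and -0.62, adjusted p = 0.00200).

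The probe named Lyz2 did not share this order. The brighter Lyzs probe of the same transcript, saturated on 11 of 12 arrays, gives no order to set beside it. The signal of the Lyz2 probe was 0.61 and 0.55 in unstimulated cells, 1.12 and 0.74 with anti-CD86 and Pam2csk4, and 0.28 and 0.22 with anti-CD40. Both arrays of anti-CD86 and Pam2csk4 lay above the unstimulated arrays and both of anti-CD40 below them. The log2 fold changes were 0.34 (95% interval -0.0045 to 0.69, adjusted p = 0.168) and -0.33 (-0.68 to 0.01, adjusted p = 0.163), so neither passed. In the fit with slide as a block, the first was 0.45 (adjusted p = 0.00812). In the other 3 groups the arrays lay between 0.48 and 0.79.

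Among the surface proteins of monocytes and macrophages, the brightest Itgam probe followed Pam2csk4, and the second probe, given below, did not in every background. The signal of the brightest probe was -0.79 and -0.86 in unstimulated cells, -0.98 and -1.01 with anti-CD86, and -0.97 and -1.1 with anti-CD40. In the groups with Pam2csk4 it was -1.37 and -1.37 with Pam2csk4 alone, -1.62 and -1.61 with anti-CD86, and -1.53 and -1.74 with anti-CD40. No array with Pam2csk4 reached the level of an array without it. Itgam fell by 0.79 with anti-CD86 and Pam2csk4 (SE 0.11, adjusted p = 0.0111) and by 0.81 with anti-CD40 and Pam2csk4 (adjusted p = 0.00270) relative to unstimulated cells. With anti-CD86 and anti-CD40 alone the changes were -0.17 (adjusted p = 0.408) and -0.21 (adjusted p = 0.234).

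The brightest Csf1r probe had signals of -0.83 and -0.83 in unstimulated cells and of -0.78 and -1.06 with Pam2csk4, so these groups overlapped. It was lower with anti-CD86 and Pam2csk4, at -1.41 and -1.74 (log2 fold change -0.74, SE 0.19, adjusted p = 0.0436), and with anti-CD40 and Pam2csk4, at -1.53 and -1.56 (-0.71, adjusted p = 0.0332). With anti-CD86 it was -1.19 and -1.63, and with anti-CD40 -1.40 and -1.17. These differences from unstimulated cells did not pass (-0.58, adjusted p = 0.122, and -0.46, adjusted p = 0.128).

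Emr1 resembled S100a8 and Mpo. Its signal was 0.99 and 0.97 in unstimulated cells, 0.65 and 0.44 with Pam2csk4, 0.32 and 0.25 with anti-CD86, 0.19 and -0.02 with anti-CD86 and Pam2csk4, 0.44 and 0.16 with anti-CD40, and 0.10 and 0.31 with anti-CD40 and Pam2csk4. Emr1 fell by 0.90 with anti-CD86 and Pam2csk4 (SE 0.15, adjusted p = 0.0154), by 0.68 with anti-CD40 (adjusted p = 0.0208) and by 0.77 with anti-CD40 and Pam2csk4 (adjusted p = 0.00957). The change with anti-CD86 was of similar size (-0.69) and missed the threshold (adjusted p = 0.0555).

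Among the receptors and adaptors, Cd14 had the widest range after Mpo, 1.46 on the log2 scale. Its signal was 3.01 on both unstimulated arrays, 3.51 and 3.25 with Pam2csk4, 2.57 and 2.28 with anti-CD86, 3.15 and 2.75 with anti-CD86 and Pam2csk4, 2.57 and 2.05 with anti-CD40, and 3.03 and 3.04 with anti-CD40 and Pam2csk4. Each group with Pam2csk4 lay above the same background without it, and both arrays of each antibody alone lay below the unstimulated arrays. The log2 fold changes against unstimulated cells were -0.59 with anti-CD86 (adjusted p = 0.152) and -0.70 with anti-CD40 (adjusted p = 0.0566). In the fit with slide as a block these were -0.40 (adjusted p = 0.0112) and -0.52 (adjusted p = 0.00293).

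By their brightest probes, Fcgr3 and Tyrobp passed in none of the comparisons in the fit without slide. The second Fcgr3 probe passed in both anti-CD40 groups, as described below. The brightest Fcgr3 probe had its highest signals, 2.93 and 2.92, in unstimulated cells, and the other arrays lay between 2.35 and 2.81. Its log2 fold changes against unstimulated cells were -0.26 to -0.41. The Tyrobp signal was 4.08 and 4.09 in unstimulated cells and 3.98 and 4.06 with anti-CD40 and Pam2csk4, and in the other 4 groups it was 3.23 to 3.80. Its log2 fold change was -0.63 with anti-CD86 (adjusted p = 0.103), -0.65 with anti-CD86 and Pam2csk4 (adjusted p = 0.0626) and -0.06 with anti-CD40 and Pam2csk4 (95% interval -0.49 to 0.37). In the fit with slide as a block, Tyrobp was lower with anti-CD86 (adjusted p = 0.00509), with anti-CD86 and Pam2csk4 (adjusted p = 0.00327) and with anti-CD40 (adjusted p = 0.0121). In that fit Fcgr3 was lower with anti-CD40 (adjusted p = 0.0166) and with anti-CD40 and Pam2csk4 (adjusted p = 0.0121).

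Counted over the 9 genes, anti-CD86 and Pam2csk4 lowered 5 (S100a8, Mpo, Emr1, Itgam and Csf1r) relative to unstimulated cells, where 10.8% of all 31599 probes tested were called and 7.38% were lower. Anti-CD40 and Pam2csk4 lowered the same 5 genes (18.2% of all probes called, 9.7% lower). Anti-CD40 lowered 3 (S100a8, Mpo and Emr1; 16.8% called, 10.7% lower) and anti-CD86 lowered S100a8 (2.17% called, 1.19% lower). Pam2csk4 alone changed none by limma, where 0.146% of all probes were called, with 4 at an unadjusted p under 0.05 against 15.8% of all probes. None of the 9 was called higher in any of these comparisons in the fit without slide. The median log2 fold change of the 9 genes was -0.34 with Pam2csk4, -0.58 with anti-CD86, -0.65 with anti-CD86 and Pam2csk4, -0.48 with anti-CD40 and -0.46 with anti-CD40 and Pam2csk4. Over all probes tested, the medians in the same order were -0.07, -0.05, -0.03, -0.02 and 0.01. With anti-CD40 both arrays lay below both unstimulated arrays for 9 of 9 genes, an order that 35.7% of all probes showed. The 5 comparisons share the 2 unstimulated arrays.

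These counts depended on single arrays and on the slide. Without unstimulated replicate 1 or without unstimulated replicate 2, the calls for anti-CD86, for anti-CD86 and Pam2csk4, and for anti-CD40 fell to 0 and that for anti-CD40 and Pam2csk4 to 1 (Itgam), and without anti-CD86 and Pam2csk4 replicate 2 that group had 0. In the fit with slide as a block the counts were 4, 5, 7, 6 and 6 in the order of the medians (of all probes 11.1%, 28.5%, 35.1%, 37.3% and 47.5% were called), and on slide 1 alone 0, 0, 7, 4 and 6. On slide 1 only the unstimulated group and the anti-CD40 and Pam2csk4 group had 2 arrays. The spread in the slide 1 fit came from these groups, whose arrays differed least. The calls with the slide block included Cd14, higher with Pam2csk4 (0.55, adjusted p = 0.0131), and Lyz2, higher with anti-CD86 and Pam2csk4 (0.45, adjusted p = 0.00812). All other calls of that fit were lower. Scaled to the array median, which lies near the background, no member was called in any comparison. That scaling moved the median of all probes by -0.11 to -0.57 against unstimulated cells.

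**Figure D2:**
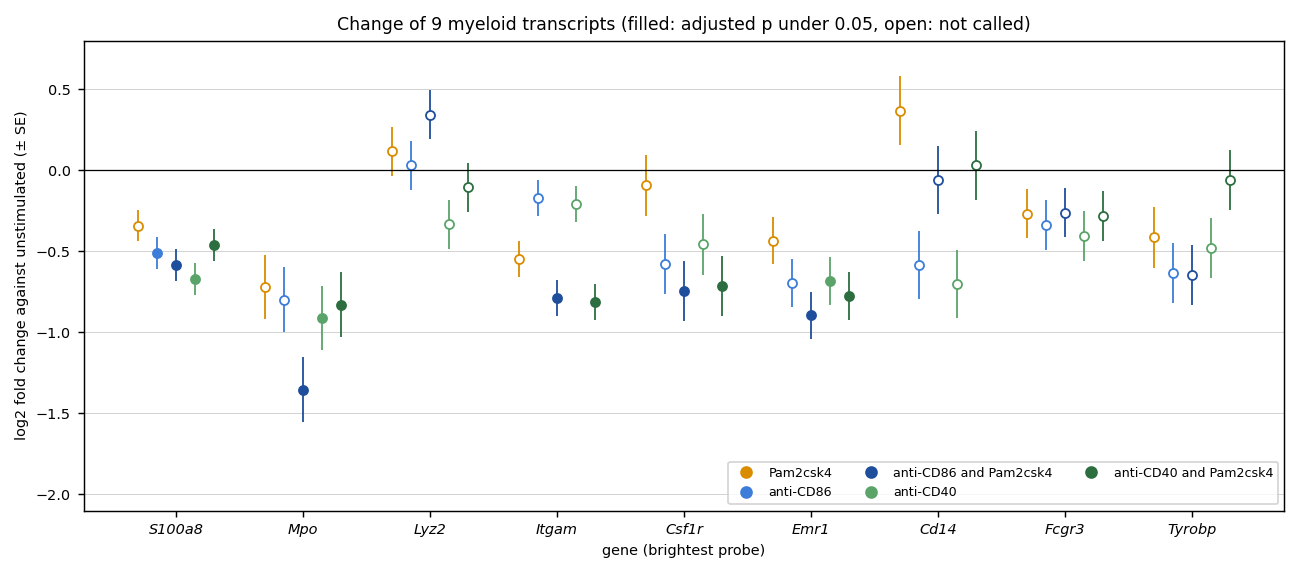
Log2 fold change against unstimulated cells with its standard error (vertical axis) for the 9 measurable genes (horizontal axis) in the 5 stimulated groups, each against the same 2 unstimulated arrays. Filled points passed an adjusted p under 0.05. S100a8 lies below 0 in all 5 groups and Mpo lies lowest, at -1.35, with anti-CD86 and Pam2csk4.

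Cells with Pam2csk4 had less signal of the brightest Itgam probe and more Cd14 signal than cells without it. Averaged over the 3 backgrounds (no antibody, anti-CD86 and anti-CD40), Itgam was the member called in the fit without slide (1 of 9; 2.95% of all probes called, 1.72% lower), and it fell by 0.59 (SE 0.06, adjusted p = 0.00336). The second Itgam probe had an average of -0.11 (adjusted p = 0.506), with 0.15 for Pam2csk4 alone and 0.01 when Pam2csk4 was added to anti-CD40. The Cd14 average was 0.54 (SE 0.12, 95% interval 0.26 to 0.82, adjusted p = 0.0587), and in the fit with slide as a block it rose by 0.54 (adjusted p = 0.000642; 27.3% of all probes called). On slide 1 alone the Cd14 average was 0.52. Lyz2 had an average of 0.22 (adjusted p = 0.239), Mpo of -0.40 (adjusted p = 0.120) and Emr1 of -0.24 (adjusted p = 0.185). With the slide block these genes passed at 0.0171, 0.000678 and 0.0152. For Tyrobp and Fcgr3 the averages were -0.0029 (95% interval -0.25 to 0.25) and -0.02 (-0.23 to 0.18).

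Within each background, the Cd14 difference between cells with and without Pam2csk4 was 0.37 without antibody, 0.53 with anti-CD86 and 0.73 with anti-CD40, none of which passed (adjusted p = 0.405, 0.520 and 0.125). With slide in the model, the values were 0.55, 0.53 and 0.55 and all 3 passed (adjusted p = 0.0131, 0.0154 and 0.00701; of all probes, 11.1%, 7.74% and 15.2% were called). Itgam fell by 0.60 when Pam2csk4 was added to anti-CD40 (adjusted p = 0.0305; 1 of 9 genes called, 2.91% of all probes called, 1.59% lower), and its changes in the other backgrounds were -0.55 (adjusted p = 0.120) and -0.62 (adjusted p = 0.131). When Pam2csk4 was added to anti-CD86, limma called 0 of 9 genes (0.225% of all probes called), with 3 at an unadjusted p under 0.05 against 8.9% of all probes.

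Adding anti-CD86 to Pam2csk4 likewise changed 0 of 9 (0.0633% of all probes called), with 4 at an unadjusted p under 0.05 against 10.4% of all probes. The values were -0.65 for Csf1r, -0.63 for Mpo, -0.46 for Emr1, -0.43 for Cd14, -0.24 for S100a8, -0.24 for Itgam and -0.23 for Tyrobp, and 0.23 for Lyz2 and 0.0065 for Fcgr3. On slide 2 alone, where each group has 1 array, the differences of the first 5 were -0.68, -0.66, -0.46, -0.50 and -0.24. Fitted with the slide block, these 5 passed and the other 4 did not (adjusted p of the 5 = 0.00598 to 0.0429), where 11% of all probes were called. The second Csf1r probe gave 0.04 (adjusted p = 0.896 with the slide block), so the Csf1r call rests on the brightest probe.

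Whether the effect of Pam2csk4 differed between backgrounds was tested as an interaction. In the fit without slide none passed for the 9 genes. For anti-CD86, 0.019% of all probes were called, and 0 of the 9 had an unadjusted p under 0.05 against 4.29% of all probes. For anti-CD40, 1.16% were called, and 3 of the 9 had an unadjusted p under 0.05 against 19.4%. Under the slide block, the anti-CD40 interaction passed for 3 genes (8.59% of all probes called), Mpo (0.45, adjusted p = 0.0284), S100a8 (0.52, adjusted p = 0.0235) and Tyrobp (0.52, adjusted p = 0.0340). A positive value means that anti-CD40 and Pam2csk4 together lay above the sum of the single effects.

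**Figure D3:**
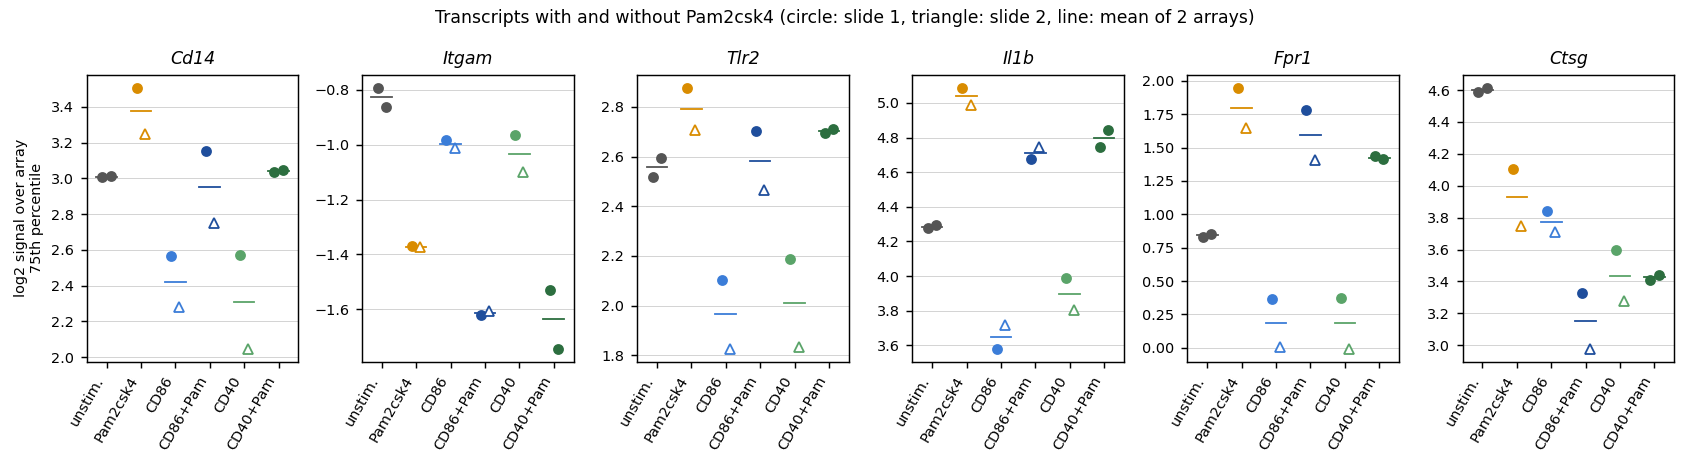
Log2 signal over the 75th percentile of the array (vertical axis, own range per panel) in the 6 groups for Cd14 and Itgam and for 4 other genes, Tlr2, Il1b, Fpr1 and Ctsg, with circles for slide 1, triangles for slide 2 and lines for the mean of 2 arrays. In each pair of groups without and with Pam2csk4, the mean rises for Cd14, Tlr2, Il1b and Fpr1 and falls for Itgam, while Ctsg is highest in unstimulated cells.

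Probes of the same gene did not always move together. The second Fcgr3 probe, printed above, fell by 1.00 with anti-CD40 (SE 0.18, adjusted p = 0.0125) and by 1.1 with anti-CD40 and Pam2csk4 (adjusted p = 0.00564), where the brightest probe changed by -0.41 (adjusted p = 0.104) and -0.28 (adjusted p = 0.240). Its signals were 0.72 and 0.67 in unstimulated cells, -0.20 and -0.40 with anti-CD40, and -0.44 and -0.36 with anti-CD40 and Pam2csk4, without overlap. Fcgr2b encodes the inhibitory IgG receptor of B cells, whose extracellular part is closely similar in sequence to that of Fcgr3. Its brightest probe fell by 1.42 with anti-CD40 (adjusted p = 0.00631) and by 1.35 with anti-CD40 and Pam2csk4 (adjusted p = 0.00438). Whether the second Fcgr3 probe also binds Fcgr2b RNA was not tested.

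The second Itgam probe gave 0.33 with anti-CD40 and Pam2csk4 (adjusted p = 0.134), opposite in sign to the brightest probe (-0.81), and 0.31 with anti-CD40 (adjusted p = 0.15). The second probe gave 0.15 with Pam2csk4 (adjusted p = 0.585) and 0.19 with anti-CD86 (adjusted p = 0.446). The brightest probe gave -0.55 and -0.17 there. With anti-CD86 and Pam2csk4 the second probe gave -0.30 (adjusted p = 0.185), the sign of the brightest probe. The files assign the Itgam probes to different RefSeq transcripts. The second Csf1r probe gave -0.21 with anti-CD86 and Pam2csk4 (adjusted p = 0.544) and -0.03 with anti-CD40 and Pam2csk4 (adjusted p = 0.947). The calls of Csf1r and Itgam therefore rest on the brightest probe.

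**Figure D4:**
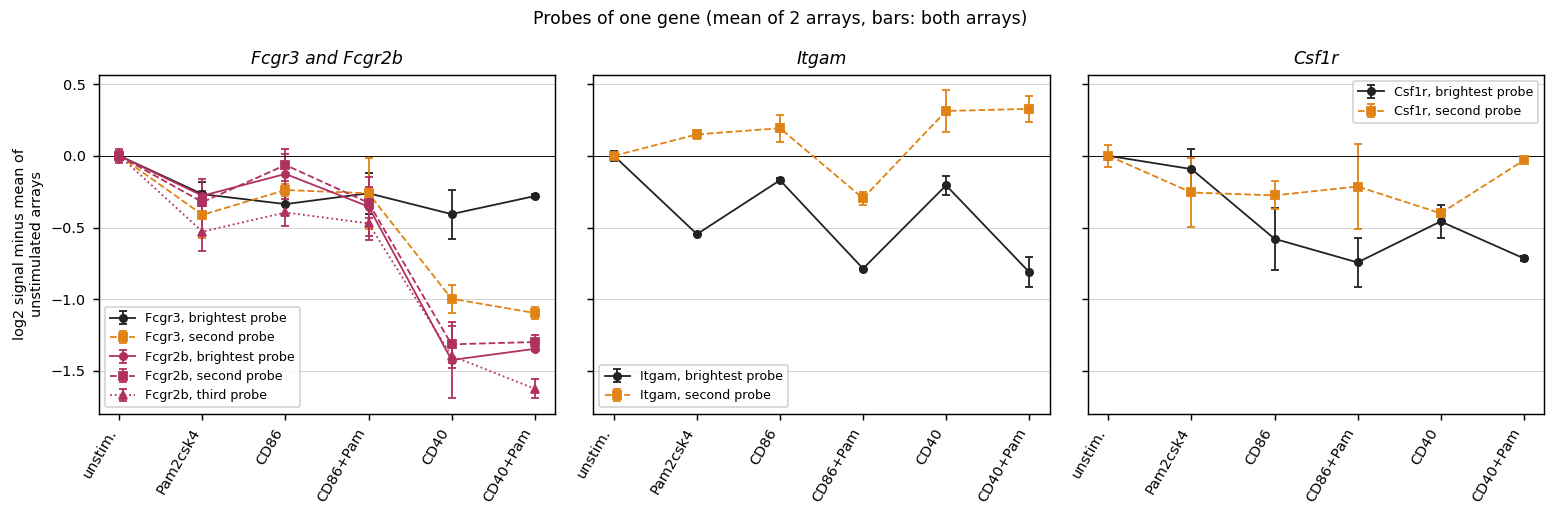
Log2 signal minus the mean of the unstimulated arrays (vertical axis) in the 6 groups, for probes of Fcgr3 and Fcgr2b, Itgam and Csf1r, with points at the mean of 2 arrays and bars to both arrays. The second Fcgr3 probe drops in both anti-CD40 groups, as the 3 Fcgr2b probes do. The means of the 2 Itgam probes lie on opposite sides of 0 in every stimulated group but anti-CD86 and Pam2csk4.

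Lists of other myeloid genes differed in how many members were detected. Of 15 neutrophil and granule genes on the array under the listed names, 15 were well above background on all 12 arrays. Of 19 macrophage genes 9 were (Cd68, C1qb, C1qc, Marco, Spic, Msr1, Hmox1, Slc40a1 and Vcam1), Cd5l was on 11 arrays, Cd163 on 5 and Siglec1 on 1, and C1qa, Mrc1, Vsig4, Mertk, Timd4, Axl and Gpnmb were on none. Of 14 monocyte genes 11 were above background throughout, of 14 dendritic cell genes 12, of 11 mast cell, basophil and eosinophil genes 7, and of 20 receptor and adaptor genes 18. A probe that stayed at background says nothing of its RNA below that limit.

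Of the granule and monocyte genes called against unstimulated cells in the 3 groups below, all but Fpr1 were lower. With anti-CD40, 6 of 15 neutrophil genes were lower and none higher (median -0.45), where 10.7% of all probes were lower. With anti-CD86 and Pam2csk4, 2 were lower and Fpr1 was higher (median -0.24; 7.38% of all probes lower), and with anti-CD40 and Pam2csk4, 5 were lower (median -0.35; 9.7% of all probes lower). With slide in the model, 9 were lower and 1 higher, 6 lower and 1 higher, and 9 lower and 2 higher in these groups. In that fit 37.3% of all probes were called with anti-CD40, 35.1% with anti-CD86 and Pam2csk4, and 47.5% with anti-CD40 and Pam2csk4. Ctsg, which encodes the granule protease cathepsin G, had signals of 4.59 and 4.62 in unstimulated cells, 3.33 and 2.98 with anti-CD86 and Pam2csk4, and 3.6 and 3.27 with anti-CD40. It fell by 1.45 (SE 0.18, adjusted p = 0.00878) and 1.17 (adjusted p = 0.00691) in these groups. With anti-CD40 and Pam2csk4 its signals were 3.41 and 3.44, a fall of 1.18 (adjusted p = 0.00382). Of 11 monocyte genes tested, 4 were lower in each of these 3 groups and none higher. F13a1, the coagulation factor XIII A chain of monocytes and platelets, was lower with anti-CD86 (log2 fold change -1.17, adjusted p = 0.0254), with anti-CD86 and Pam2csk4 (-1.54, adjusted p = 0.00579) and with anti-CD40 (-1.32, adjusted p = 0.00278). Its signals were 1.55 and 1.58 in unstimulated cells and -0.10 and -0.01 with anti-CD40 and Pam2csk4. Of 11 myeloid transcription factor genes, 5 were lower with anti-CD86 and Pam2csk4, 6 with anti-CD40 and 4 with anti-CD40 and Pam2csk4, and none was higher. Of 8 mast cell, basophil and eosinophil genes, 3, 1 and 3 were lower in these groups and none was higher. Fitted with the slide block, the lower counts in these groups were 7, 6 and 8 for the monocyte genes, 7 in each for the transcription factor genes (with 1 higher in each for both lists), and 4, 2 and 3 for the mast cell list.

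Genes of the TLR2 pathway and genes it induces rose in part in the groups with Pam2csk4. Of 23 tested in that list, 13 were higher and none lower when Pam2csk4 was averaged over the 3 backgrounds (median 0.52, against -0.01 over all probes, of which 1.23% were higher), and 4, 7 and 9 were higher against unstimulated cells with Pam2csk4, with anti-CD86 and Pam2csk4, and with anti-CD40 and Pam2csk4, where 0.101%, 3.41% and 8.54% of all probes were higher. In each of the last pair 1 gene of the list was lower. Among the largest averages were those of Saa3, an acute phase protein (2.17, adjusted p = 4.3e-05), the neutrophil chemokine Cxcl1 (2.02, adjusted p = 0.000315), Il12b, the p40 chain of IL-12 (1.89, adjusted p = 2.6e-05), Ptgs2, the inducible cyclooxygenase (1.75, adjusted p = 0.000391) and the cytokine Tnf (1.26, adjusted p = 0.00153). Saa3 was not well above background on either array of anti-CD40 alone, so its average takes in a signal at background, and with Pam2csk4 added it was at least 4.62-fold higher (adjusted p = 0.000161). Ptgs2 was above background on 10 of 12 arrays. Il1b and Il6 were lower with anti-CD86 alone than in unstimulated cells (-0.64, adjusted p = 0.0410, and -0.89, adjusted p = 0.0436). The neutrophil receptor gene Fpr1 rose by 1.41 when Pam2csk4 was added to anti-CD86 (adjusted p = 0.0463).

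Of 13 dendritic cell genes tested, 2 were higher and 1 lower with anti-CD86 and Pam2csk4, 2 higher and 1 lower with anti-CD40, and 4 higher and 1 lower with anti-CD40 and Pam2csk4. Of all probes, 10.8%, 16.8% and 18.2% were called in these groups. Under the slide block, 3, 4 and 4 were higher and 6, 4 and 6 lower, where 35.1%, 37.3% and 47.5% of all probes were called. Among the calls against unstimulated cells, Zbtb46, a transcription factor of conventional dendritic cells, had the largest change of the listed genes. Its signal was -0.84 and -0.86 in unstimulated cells, 0.30 and 0.19 with Pam2csk4, and 2.48 and 2.11 with anti-CD40. It rose by 1.1 with Pam2csk4 (adjusted p = 0.0424), by 3.14 with anti-CD40 (adjusted p = 6.8e-05) and by 3.38 with anti-CD40 and Pam2csk4 (adjusted p = 6.8e-06). Ccl17, a chemokine gene of the same list, was at least 2.26-fold higher when Pam2csk4 was added to anti-CD40 (adjusted p = 0.0157), and it was not well above background with anti-CD40 alone. Clec9a, a receptor gene of conventional dendritic cells, was the gene called lower, with log2 fold changes of -0.59 with anti-CD86 (adjusted p = 0.0475), -1.05 with anti-CD86 and Pam2csk4 (adjusted p = 0.00755), -0.60 with anti-CD40 (adjusted p = 0.0158) and -0.81 with anti-CD40 and Pam2csk4 (adjusted p = 0.00334). Siglech, a gene of plasmacytoid dendritic cells, was lower with Pam2csk4 averaged over the 3 backgrounds (-0.77, adjusted p = 0.00945).

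Hmox1, a heme oxygenase abundant in red pulp macrophages, was called lower with anti-CD40 and Pam2csk4. Its signal was 3.81 on both unstimulated arrays, 3.6 and 3.10 with anti-CD40, and 1.02 and 1.12 with anti-CD40 and Pam2csk4. It fell by 2.74 in the last group (SE 0.20, adjusted p = 0.000179) and by 2.28 when Pam2csk4 was added to anti-CD40 (adjusted p = 0.000815), and its signals in the other stimulated groups, all below the unstimulated arrays, were 3.10 to 3.64.

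Among the receptors, Trem2, which signals through Tyrobp, was not well above background on either array with anti-CD86 and was at least 2.63-fold lower there than in unstimulated cells (adjusted p = 0.0424). Clec4d, a C-type lectin receptor, fell by 0.60 with anti-CD86 (adjusted p = 0.0436). Tlr1, the partner of TLR2 for triacylated lipopeptides, rose by 1.73 with anti-CD40 (adjusted p = 0.00107) and by 1.85 with anti-CD40 and Pam2csk4 (adjusted p = 0.000285). Of 20 receptor and adaptor genes tested, 6 were lower with anti-CD40 and none higher, where 10.7% of all probes were lower. With anti-CD40 and Pam2csk4, 4 were lower and Clec4e and Syk higher (9.7% of all probes lower, 8.54% higher). With slide in the model, the counts were 13 lower and 1 higher, and 10 lower and 3 higher, where 37.3% and 47.5% of all probes were called.

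**Figure D5:**
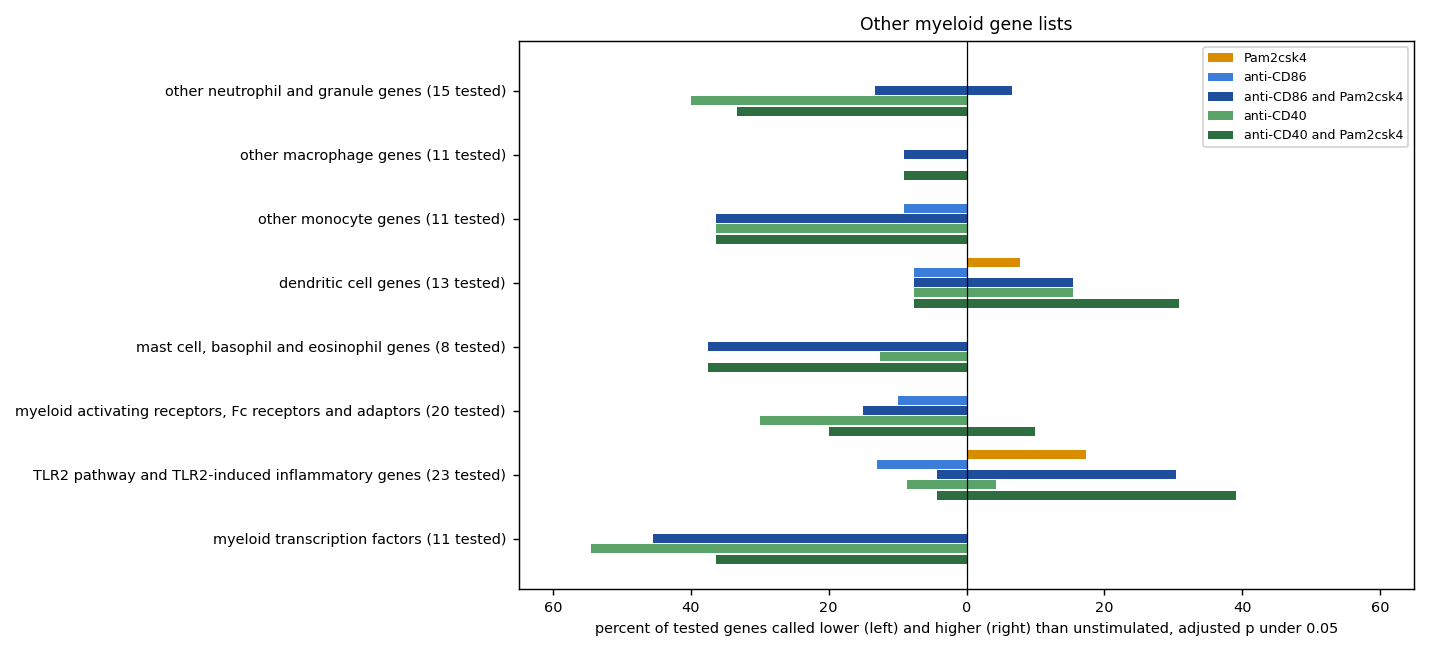
Share of the tested genes of 8 other myeloid lists (vertical axis, with the number tested) that were called lower (left) or higher (right) than in unstimulated cells at an adjusted p under 0.05, in percent, for the 5 stimulated groups. Neutrophil, monocyte and transcription factor genes lie mostly to the left, and TLR2-induced genes to the right in the groups with Pam2csk4.

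Markers of other cells moved in part with the members. The summed signal of the 9 members, each relative to the 75th percentile on the linear scale, was 317 to 319 on the unstimulated arrays and 163 to 242 on the 10 others. S100a8 and Mpo made up 82.6% to 88.3% of this sum, and the other 7 members summed to 37.2 on both unstimulated arrays and to 23.1 to 36.3 on the others. For 10 NK cell genes it was 49.2 to 50.2 on the unstimulated arrays and 31.8 to 46.0 on the others, and for 13 T cell genes 43.3 to 44.1 and 28.1 to 38.9. The sum of 12 B cell genes was 337 to 353 in unstimulated cells and 286 to 369 in the others, so it overlapped. That of 6 red cell genes also overlapped, with 89.2 to 90.0 in unstimulated cells and 62.1 to 110.1 in the others. Of 14 T cell genes 13 were well above background on all arrays (Cd4 on 10) and of 11 NK cell genes 10 (Ncr1 on 9). Against unstimulated cells, 4 of 11 NK cell genes were lower with anti-CD86 and Pam2csk4 and 4 with anti-CD40, and 1 of 14 T cell genes was lower and 1 higher with anti-CD86 and Pam2csk4 and none was called with anti-CD40 (7.38% and 10.7% of all probes lower). Fitted with the slide block, 6 and 5 NK cell genes and 6 and 3 T cell genes were lower in these groups. In that fit 35.1% and 37.3% of all probes were called. Of 9 platelet genes, 3 were lower with anti-CD86 and Pam2csk4 and 2 with anti-CD40. With anti-CD40 and Pam2csk4, 2 were lower and 1 higher (9.7% of all probes lower, 8.54% higher). The sum of 5 platelet genes was 64.3 to 67.2 on the unstimulated arrays, 23.6 to 28.2 with anti-CD40, 31.2 to 31.8 with anti-CD40 and Pam2csk4, and 51.6 to 69.5 in the other groups. That of 5 plasma cell genes was 21.6 to 21.9 on the unstimulated arrays, 38.8 to 39.7 with anti-CD40, 44.0 to 46.5 with anti-CD40 and Pam2csk4, and 21.8 to 27.3 in the other groups. The plasma cell genes did not rise together. Of 6 tested, 1 was higher and 2 lower with anti-CD40 (median log2 fold change -0.39; 16.8% of all probes called). With anti-CD40 and Pam2csk4, 1 was higher and 1 lower (median -0.22; 18.2% of all probes called). The part of NK cells, T cells, red cells, platelets or plasma cells in the changes of the members was not tested.

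The genes with the most similar profiles over the 12 arrays were sought among 23538 probes with a symbol that were well above background and unsaturated throughout. For Cd14 these were F10 (Pearson r = 0.99), Hdc (0.98), the histidine decarboxylase of granulocytes, and Treml4 (0.97), a receptor of the myeloid Trem cluster. For Mpo they were F2r, Angptl4 and Mthfd1l (each 0.99), and for Emr1 Tmem49, Tyms and 5730494N06Rik (each 0.99). For Csf1r the nearest was Ela2, an older symbol of Elane, the neutrophil elastase gene (0.93). For S100a8 they were Vwa5a, Ndufa8 and 2010107H07Rik (0.98 to 0.97), for Itgam Cadm1, Adnp and Aqp1 (0.98 to 0.95), and for Lyz2 Ifngr2, Atxn7l2 and Grina (0.95 to 0.93). For Tyrobp they were Mtx1, Ndufa12 and Bola2 (each 0.99) and for Fcgr3 Hist1h4d, D8Ertd738e and Ccdc61 (0.98 to 0.97).

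Among the members themselves, r was 0.94 between Emr1 and Mpo, 0.89 between Emr1 and S100a8, and 0.85 between S100a8 and Mpo. It was -0.12 between Lyz2 and Mpo and -0.41 between Cd14 and Itgam. These coefficients describe 12 arrays that share slides and group means, and carry no test.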

How the data were processed

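RNA from the RB cells was labelled with Cy3 by the authors and hybridised to one-colour custom Agilent arrays, which were read with Feature Extraction 10.5.1.1 (mm9 in the headers). The authors deposited spot intensities (processed signal, corrected for background and trend within an array) and a table of log2 values, which differed from the log2 processed signal by 1 constant per array (within 1e-06 for nearly all probes with 1 spot). The methods name GeneSpring and a one way test.

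Outlier spots were dropped, spots of a probe averaged and log2 intensities taken minus the array's 75th percentile. A probe was kept if some group had it well above background on both of its arrays. Leaving out 70 probes with a missing value, 31599 entered a limma model (version 3.58.1, R 4.3.3) of all 12 arrays with a mean per group, no covariate, eBayes and Benjamini-Hochberg adjustment over all probes. Calls had an adjusted p under 0.05. Saturated spots were kept. The brightest probe stood for a gene. All 15 member probes matched a RefSeq transcript in a table of GRCm38.p6, used for names. The number of arrays limits the precision.

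Named beside the members were up to 5 called genes of the myeloid lists with the largest change per comparison and the 3 genes most like each member. Tlr2, Fpr1 in other comparisons, Fcgr2b, Ctsg and F13a1 with anti-CD40 and Pam2csk4, Clec9a, Siglech, Clec4e and Syk were named after their values were seen. The members and lists were chosen with earlier results of these data known. Where a list gives an old and a new symbol, 1 of them was on the array, and counts are of the names there. Alternatives were the scaling, the background correction, the filter, the slide as a block, slide 1 alone, the replicate block, the deposited log2 values, no moderation, the mean over probes and leaving out each array. Tests were checked on simulated data. Figures were drawn with matplotlib 3.10.9 and tables made with pandas 2.3.3 (numpy 2.4.6, Python 3.11.15).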

Additional observations from a re-analysis of the deposited data

How the results depend on the processing

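The 10 genes were well above background in every group also when 1 array of a group sufficed or when a significantly positive signal was asked for. Of 1629 values of the 9 genes under the alternatives, 1464 stayed on their side of the threshold, 93 lost and 72 gained a call, 72 uncalled values changed sign, and none changed sign with a call on either side. The member counts, in the order Pam2csk4, anti-CD86, anti-CD86 and Pam2csk4, anti-CD40, anti-CD40 and Pam2csk4 (each against unstimulated), the Pam2csk4 average, Pam2csk4 added to anti-CD86, Pam2csk4 added to anti-CD40, and anti-CD86 added to Pam2csk4, were 0, 1, 5, 3, 5, 1, 0, 1 and 0, and the authors' deposited log2 values gave the same counts. Median scaling gave 0 in all 9, no filter on dim probes 0, 0, 0, 0, 1, 1, 0, 0 and 0, and the slide block 4, 5, 7, 6, 6, 5, 3, 2 and 5. Slide 1 alone gave 0, 0, 7, 4, 6, 1, 0, 0 and 0, quantile scaling 0, 1, 6, 4, 4, 2, 0, 0 and 0, normexp 0, 3, 6, 5, 4, 3, 0, 1 and 0, probes above background on all 12 arrays 0, 2, 6, 4, 5, 2, 0, 1 and 0, no moderation 1, 2, 4, 3, 4, 1, 0, 1 and 0, and the mean over probes 0, 1, 4, 4, 4, 1, 0, 0 and 0. Leaving out 1 array gave 0 for Pam2csk4, 0 for anti-CD86, 0 to 3 for anti-CD86 and Pam2csk4 (3 without its replicate 1), 0 to 5 for anti-CD40 (5 without its replicate 1, 1 without its replicate 2), 1 to 2 for anti-CD40 and Pam2csk4 (1 without its replicate 1, 2 without its replicate 2), 1 to 2 for the average (2 without anti-CD40 replicate 1), 0 to 1 for Pam2csk4 added to anti-CD40 (0 without either anti-CD40 and Pam2csk4 array or anti-CD40 replicate 2) and 0 for the other 2. A group left with 1 array is assumed to vary like the others. On slide 1 alone this holds for every group but unstimulated and anti-CD40 and Pam2csk4. The causes of these shifts were not tested.

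The replicate block gave 0, 5, 6, 6, 5, 3, 0, 2 and 0. The replicate numbers did not pair the samples: deviations from the group means correlated at 0.54 to 0.67 between groups that span both slides, where the number follows the slide, and at -0.11 to 0.07 between the other pairs of groups. The dimmest Csf1r and Emr1 probes were at background on most arrays, where the lowest intensity well above background was 19.5 to 32.9, and the saturated S100a9 spot has no upper bound here.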
